A study of Homo sapiens with 2 samples.

Results

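Kinesins are the motor proteins that step along microtubules, and 42 of their genes were found among the 27685 genes of the deposited table. Members were taken by symbol alone, as KIF followed by a number and an optional A, B or C (39 genes) or as KIFC followed by a number (3 genes), without antisense RNAs and pseudogenes. The cells were NCI-H838, an established human lung adenocarcinoma line, collected 48 hours after lipid-mediated transient transfection with pCDH carrying full-length LINC00472, a long noncoding RNA, or with the empty pCDH vector. One culture per plasmid was sequenced, as 1 library of 21093055 counts for LINC00472 and 1 library of 54823706 counts for the control. Without replicates there is no test: intervals given here cover counting error only, and a difference between plasmids and a difference between these 2 cultures cannot be told apart.

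Most kinesins have a motor domain that burns ATP to walk along, slide or shorten microtubules. One set works in dividing cells, where it separates the spindle poles, aligns chromosomes and completes cytokinesis, and its messages are made mainly late in the cell cycle. Another set carries vesicles, lysosomes, mitochondria and ciliary cargo in cells at any stage. By these known roles 15 members were placed in a mitotic class, 17 in a transport class and 10 in a remaining class of cilium, centriole, signalling or little studied kinesins.

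As a check of the labels, LINC00472 had 25.3 FPKM (the authors' value per transcript length and library depth) in the LINC00472 library and 4.74 FPKM in the control library, from 5655 counts with LINC00472 and 2563 in the control. The simple epithelial keratins KRT8 and KRT18 were present, with 26.5 and 23.9 FPKM in the LINC00472 library, against 94.2 and 156.7 FPKM in the control library. Summed over 6 epithelial markers the level was 54.0 FPKM with LINC00472 against 254 FPKM in the control, and KRT8 and KRT18 carried that sum. KRT19 was listed at 0 with LINC00472 and at 0.520 FPKM in the control. EPCAM had 1.18 FPKM with LINC00472 and 1.19 FPKM in the control, and CLDN4 had 0.370 FPKM with LINC00472 and 0.288 FPKM in the control. CDH1 was higher in FPKM with LINC00472, from 239 counts, than in the control, from 368 counts (1.34 FPKM). Of 4 lung lineage markers NKX2-1 and SFTPB were listed at 0 in both libraries, SFTPC at 0 with LINC00472 and 0.102 FPKM in the control, and NAPSA at 2.40 FPKM with LINC00472 and 0.742 FPKM in the control. Summed FPKM, LINC00472 against control, of 4 fibroblast markers was 1.93 against 1.87, of 4 immune markers 10.1 against 14.5 (nearly all from CD68), of 3 endothelial markers 0.165 against 0.153 and of 3 neuronal markers 9.42 against 4.13 (mostly MAP2). CD3E and RBFOX3 were listed at 0 in both libraries, and PTPRC, PECAM1 and CDH5 at 0 in the LINC00472 library. The part of these markers in the kinesin values was not tested.

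Most promoters of the mitotic class hold a sequence feature that the choice by symbol did not use, and the matching stretches are shown first because the mitotic and transport classes differ in how often they hold it. The cell cycle genes homology region, TTTGAA, is a promoter element through which the DREAM and B-MYB complexes are known to time late cell cycle genes. It was searched on both strands of RefSeq windows of 300 bases (build GRCh38.p14, 250 bases before to 50 after each annotated start). At least 1 window held it in 10 of 15 mitotic genes (66.7%), in 1 of 12 transport genes with a window (8.33%) and in 0 of 7 of the remaining class. Among 10156 protein-coding genes with a window and at the expression minimum the share was 13.8%, and among all 27305 genes with a window 18.2%.

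The matches are given below with up to 20 reference bases on either side, on the strand of the gene, with the match in capitals (as TTTGAA or as its reverse complement):
KIF23: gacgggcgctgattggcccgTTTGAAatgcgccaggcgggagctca
KIF15: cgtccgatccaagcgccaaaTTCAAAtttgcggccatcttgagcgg
KIF4A: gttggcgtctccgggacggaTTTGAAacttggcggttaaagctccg
KIF11: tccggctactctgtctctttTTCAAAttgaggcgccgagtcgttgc
KIF18A: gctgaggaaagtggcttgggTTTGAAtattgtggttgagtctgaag
KIF14: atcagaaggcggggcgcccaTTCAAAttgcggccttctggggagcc
KIF18B: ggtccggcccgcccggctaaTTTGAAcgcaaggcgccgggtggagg
KIF4B: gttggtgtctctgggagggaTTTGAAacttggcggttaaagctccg
KIFC1: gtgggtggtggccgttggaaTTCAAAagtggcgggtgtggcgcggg
KIF20B: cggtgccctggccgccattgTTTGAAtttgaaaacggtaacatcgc
KIF5B: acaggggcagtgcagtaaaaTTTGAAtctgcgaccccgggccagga

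In the mitotic genes the first base of the match lay between position -55 (KIF23) and position 31 (the last of 2 adjoining matches in KIF20B), counted from the annotated start. In the KIF20B stretch above, capitals mark only the first of these matches, and the other follows it in lower case. In KIF5B, the one transport gene with a match, it lay at position -140. Of 1743 matches in the windows of protein-coding genes, 29.4% began at position -60 or later, as all 11 mitotic matches did. The limit of -60 was not planned and lies just outside the match of KIF23. That all mitotic matches fall within it is therefore no separate result. KIF4B is an intronless copy of KIF4A, and 43 of the 46 bases shown for these genes are identical. A CCAAT box lay in a window of 11 mitotic genes (73.3%), 4 transport genes (33.3%) and 43.6% of the protein-coding genes. The GC box GGGCGG lay in a window of 13 mitotic genes (86.7%), 12 transport genes (100%) and 77.3% of the protein-coding genes. A match describes these letters in the reference genome and is not evidence of binding in NCI-H838.

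Genes are called higher or lower where the mean of both libraries was at least 1 CPM (a count scaled to library size and composition by TMM factors), the ratio was at least 2-fold and the 95% counting interval excluded equality. By this rule 33 of the 42 kinesins reached the expression minimum. With LINC00472, 4 of them were higher and 3 lower than in the control. Of all 14012 genes at the minimum 16.3% were higher and 23.8% lower, together 40.2%, and among protein-coding genes 11.2% were higher and 26.3% lower. The median log2 ratio was 0.094 for the 33 kinesins and -0.19 for all genes. Kinesin messages are long, with a median transcript of 4551 nt against 2667 nt for all genes at the minimum. After adjustment for transcript length the median log2 ratio was -0.041 for the kinesins and -0.087 for all genes with a known length.

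**Figure D1:**
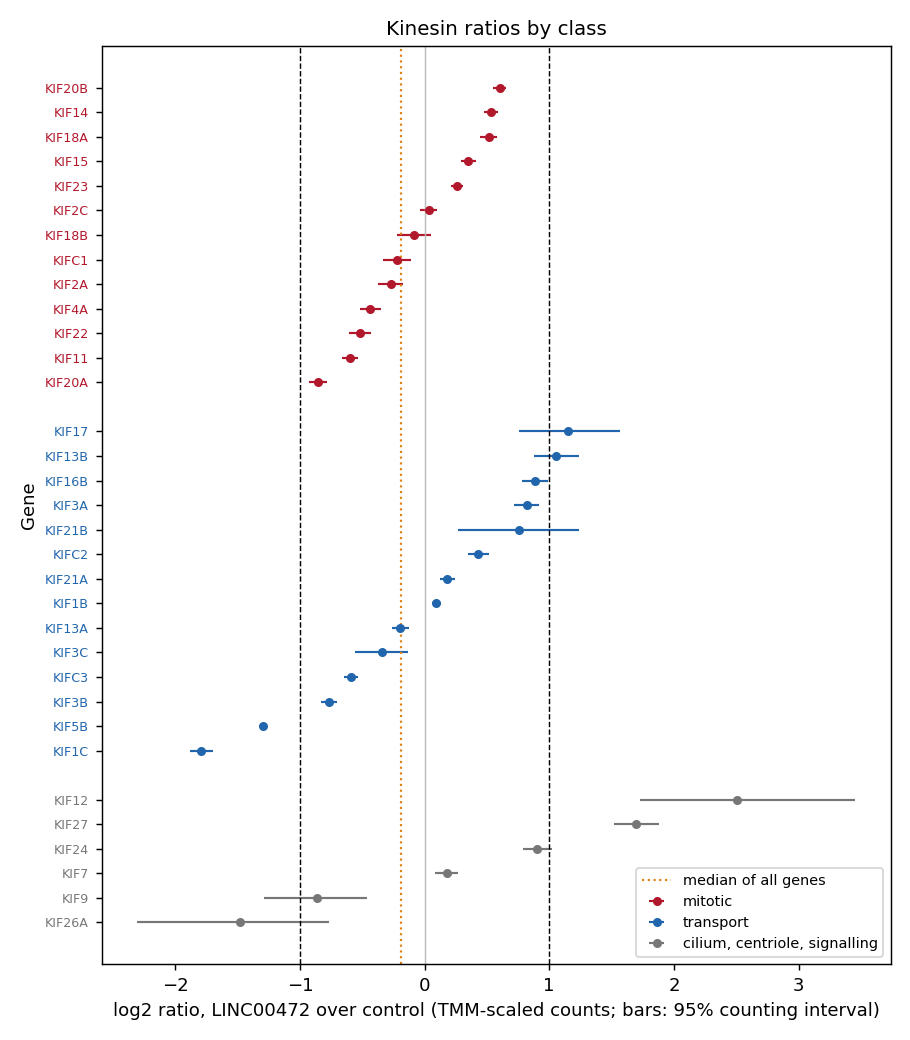
Log2 ratio of TMM-scaled counts, LINC00472 over control, for the 33 kinesins at the expression minimum, with 95% counting intervals, dashed lines at 2-fold and a dotted line at the median of all genes (-0.19). The 13 mitotic kinesins lie between -0.86 and 0.60, inside the dashed lines, and KIF12, KIF27, KIF17, KIF13B, KIF5B, KIF26A and KIF1C lie outside.

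Mitotic kinesins with a KIF symbol that reached the minimum stayed within 2-fold between the libraries. Of 15 genes 13 were measured, 0 were higher and 0 were lower, against 16.3% and 23.8% of all genes. Log2 ratios of the class ran between -0.86 and 0.60 with a median of -0.08. The same count of 0 in each direction was found with every scaling, prior count and minimum tried. At a limit of 1.5-fold in place of 2-fold KIF20B was higher and KIF11 and KIF20A were lower. At that limit 25.4% of all genes were higher and 36.5% lower. In bulk RNA a smaller share of dividing cells and less RNA per dividing cell cannot be told apart.

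Without adjustment for transcript length, motors of the spindle midzone and of cytokinesis were found at both ends of the mitotic range. KIF20B, which acts in the last steps of cytokinesis, had 35.2 FPKM in LINC00472 cells and 20.4 FPKM in control cells (log2 ratio 0.60, interval 0.55 to 0.65). KIF14, which works with citron kinase at the midbody, had 26.6 FPKM with LINC00472 and 16.1 FPKM in the control (0.53). KIF23, the motor subunit of centralspindlin, had 65.7 FPKM with LINC00472 and 49.0 FPKM in the control (0.26). These 3 were the higher-reading midzone motors, and none reached 2-fold. KIF20A, which brings Aurora B to the midzone, had 25.6 FPKM in LINC00472 cells and 40.7 FPKM in control cells, the lowest ratio of the class (-0.86, interval -0.93 to -0.79). KIF4A, a chromosome-bound motor that partners PRC1 at the midzone, had 15.0 FPKM with LINC00472 and 17.9 FPKM in the control (-0.43). After adjustment for transcript length the ends of the class were KIF18A (0.48) and KIF11 (-0.82). KIF20B then stood at 0.38, KIF23 at 0.22, KIF14 at 0.09, KIF4A at -0.52 and KIF20A at -0.76.

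Motors that build the bipolar spindle differed among themselves. KIF11, the target of monastrol and the main motor of pole separation, had 20.8 FPKM in LINC00472 cells and 27.7 FPKM in control cells (log2 ratio -0.60). KIF15, which can take over from KIF11 in pole separation, had 29.8 FPKM with LINC00472 and 20.5 FPKM in the control (0.35). KIFC1, a minus-end motor that clusters centrosomes, had 14.7 FPKM with LINC00472 and 15.1 FPKM in the control (-0.22). The sign of KIFC1 turned with the scaling, to 0.066 (total counts) and 0.17 (upper quartile). KIF15 thus stood above KIF11 in FPKM in the LINC00472 library and below it in the control library.

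Motors of chromosomes and of microtubule ends all lay within 1.5-fold where they reached the minimum. KIF18A, which damps chromosome movement at the spindle equator, had 33.1 FPKM in LINC00472 cells and 20.4 FPKM in control cells (log2 ratio 0.51). KIF18B, which shortens astral microtubules, had 6.15 FPKM with LINC00472 and 5.74 FPKM in the control (-0.08). Its sign turned with the scaling, to 0.20 (total counts) and 0.30 (upper quartile). The microtubule depolymerases KIF2C and KIF2A had 38.9 and 11.7 FPKM in the LINC00472 library, against 33.4 and 12.5 FPKM in the control library (0.03 and -0.27). The sign of KIF2A also turned, to 0.018 (total counts) and 0.12 (upper quartile). KIF22, a chromosome arm motor, had 28.8 FPKM with LINC00472 and 36.3 FPKM in the control (-0.52). KIF4B had 12 counts with LINC00472 and 11 in the control, below the minimum, and shares sequence with KIF4A, so its reads are uncertain. KIF2B, a motor known mainly from testis, had a count of 0 in both libraries, which leaves room for shares of up to 1.42e-05% of LINC00472 counts and 5.47e-06% of control counts.

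**Figure D2:**
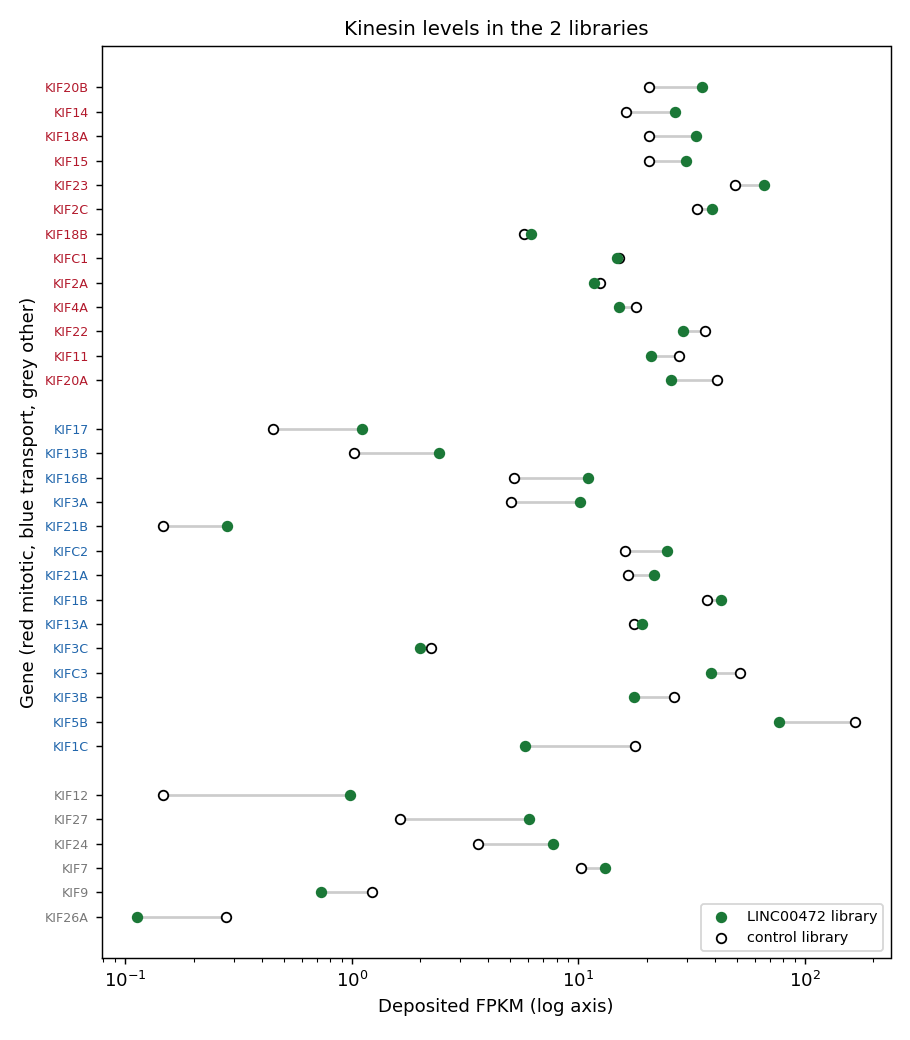
Deposited FPKM on a log axis in the LINC00472 library (filled) and the control library (open) for the 33 kinesins at the minimum, by class and in order of ratio. KIF5B has the highest level in both libraries (76.6 FPKM with LINC00472 and 165.6 in the control), and KIF1C and KIF5B show the widest gaps among transport motors above 5 FPKM in both libraries.

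Transport kinesins were spread more widely than mitotic ones. Of 17 genes 14 were measured, and 2 were higher and 2 were lower, together 28.6% against 40.2% of all genes. The median log2 ratio of the class was 0.14, with a range of -1.79 to 1.15. The interquartile range of the ratios was 1.33 on the log2 scale for transport and 0.79 for mitotic members, a width that no library scaling can move. Quartiles lay at -0.53 and 0.80 for the transport class and further apart for all genes, at -0.96 and 0.60. The transport class was thus not more widely spread than all genes. The median of the mitotic class minus that of the transport class was -0.22, and 0.14 after correction for transcript length, so the order of the classes turned with that setting. With length-adjusted ratios the transport median was -0.19.

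KIF5B, the ubiquitous heavy chain of conventional kinesin, was the most abundant kinesin message in both libraries and was lower in the LINC00472 library. It had 76.6 FPKM (10598 counts) in the LINC00472 library and 165.6 FPKM (55494 counts) in the control library, a 2.46-fold lower level (log2 ratio -1.30, interval -1.33 to -1.27). Length adjustment gave -1.52, total counts -1.01 and upper quartile factors -0.91, which is short of 2-fold. KIF5A and KIF5C, its neuronal relatives, had 5 and 31 counts with LINC00472, against 9 and 18 in the control, and both were below the minimum. Its start window, printed because KIF5B carries the largest number of kinesin counts, lies on chr10:32056376-32056675, minus strand, GRCh38.p14, with 1 TTTGAA match, 1 match of the CCAAT box and 2 of the GC box in capitals, on either strand:
KIF5B: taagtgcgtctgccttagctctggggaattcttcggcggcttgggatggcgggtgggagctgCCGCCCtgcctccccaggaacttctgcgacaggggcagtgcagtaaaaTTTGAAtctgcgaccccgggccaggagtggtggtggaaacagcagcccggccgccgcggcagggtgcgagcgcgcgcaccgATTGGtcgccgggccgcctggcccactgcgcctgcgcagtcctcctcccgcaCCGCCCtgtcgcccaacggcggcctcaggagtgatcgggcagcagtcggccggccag

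KIF1C, which carries vesicles and integrins towards microtubule plus ends, had the lowest ratio of all measured kinesins. It had 5.80 FPKM (1080 counts) in the LINC00472 library and 17.7 FPKM (7963 counts) in the control library, 3.46-fold lower (log2 ratio -1.79, interval -1.89 to -1.70). The call held with every alternative tried, and the length-adjusted ratio was -2.23. KIF1B, its close relative and a motor of mitochondria and synaptic vesicle precursors, had 42.6 FPKM with LINC00472 and 36.8 FPKM in the control (0.09). The ratio of KIF1B turned to -0.35 after length adjustment. KIF1A, the neuronal member, had 0 counts with LINC00472 and 29 in the control. With 3 counts, the limit a count of 0 allows, in place of 0, its level was 4.54-fold lower. The counting interval, which also covers the control count, reached up to a log2 ratio of -1.79, and the mean was below the minimum. The start window of KIF1C, printed as that of the lowest member, lies on chr17:4997700-4997999, plus strand, GRCh38.p14, and its capitals mark 4 GC box matches, without a TTTGAA or CCAAT match:
KIF1C: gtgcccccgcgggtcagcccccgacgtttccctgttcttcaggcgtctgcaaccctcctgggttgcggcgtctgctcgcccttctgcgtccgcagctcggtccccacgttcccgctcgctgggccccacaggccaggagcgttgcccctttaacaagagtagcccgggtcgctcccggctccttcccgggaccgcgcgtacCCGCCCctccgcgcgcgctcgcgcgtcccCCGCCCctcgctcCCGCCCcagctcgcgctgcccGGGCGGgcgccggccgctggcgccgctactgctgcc

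The subunits of heterotrimeric kinesin, the motor of intraflagellar transport, had ratios of opposite sign, none past 2-fold. KIF3A had 10.2 FPKM in LINC00472 cells and 5.06 FPKM in control cells (log2 ratio 0.82, interval 0.72 to 0.92). KIF3B, with which it dimerizes, had 17.6 FPKM with LINC00472 and 26.3 FPKM in the control (-0.76). The alternative partner KIF3C had 256 counts with LINC00472 and 692 in the control (-0.34, and 0.043 with upper quartile factors). The shared accessory subunit KIFAP3 had 16.9 FPKM with LINC00472 and 15.4 FPKM in the control, whereas its ratio of TMM-scaled counts was -0.07. The count of KIF3A was 0.592 of that of KIF3B with LINC00472 and 0.197 of it in the control, a gap of 1.58 on the log2 scale on which scaling has no bearing. KIF17, the homodimeric relative that enters cilia and dendrites, was higher, with 1.11 FPKM (107 counts) in LINC00472 cells against 0.447 FPKM (102 counts) in control cells, 2.22-fold (log2 ratio 1.15, interval 0.75 to 1.56). It was not called with FPKM plus 0.5, nor at a minimum of 5 CPM. The start window of KIF17, printed as that of the highest measured transport member, lies on chr1:20717958-20718257, minus strand, GRCh38.p14, with its 1 GC box match in capitals:
KIF17: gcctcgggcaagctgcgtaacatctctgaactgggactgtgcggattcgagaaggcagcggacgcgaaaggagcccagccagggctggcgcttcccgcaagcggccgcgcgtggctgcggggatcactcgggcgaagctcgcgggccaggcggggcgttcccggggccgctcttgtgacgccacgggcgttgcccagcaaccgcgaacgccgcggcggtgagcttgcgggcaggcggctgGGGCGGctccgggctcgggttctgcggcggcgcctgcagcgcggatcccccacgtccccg

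Motors of endosomes and the cell membrane differed among themselves. KIF13B, which carries the scaffold protein DLG1, was higher, with 2.41 FPKM (498 counts) in LINC00472 cells against 1.02 FPKM (510 counts) in control cells, 2.08-fold (log2 ratio 1.05, interval 0.87 to 1.24). Its transcript of 8745 nt falls in the tenth of longest transcripts, and its ratio was 0.61 after length adjustment and 0.997 with the control thinned to equal depth, both short of the rule, as was the ratio with 0.5 added to each FPKM (0.94). KIF16B, which moves early endosomes, had 1338 counts with LINC00472 and 1541 in the control (0.89), and was called higher with FPKM plus 0.5. KIF13A, a motor of recycling endosomes and the closest relative of KIF13B, had 19.1 FPKM with LINC00472 and 17.5 FPKM in the control (-0.20). Its sign also turned, to 0.092 (total counts) and 0.19 (upper quartile).

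The remaining transport motors had ratios within 2-fold. KIF21A, which restrains microtubule growth at the cell cortex, had 21.5 FPKM in LINC00472 cells and 16.6 FPKM in control cells (log2 ratio 0.18). After length adjustment its ratio was -0.04. KIF21B had 0.281 FPKM with LINC00472 and 0.147 FPKM in the control (0.75, interval 0.27 to 1.24). KIFC2 had 24.6 FPKM with LINC00472 and 16.0 FPKM in the control (0.43), and KIFC3, a minus-end motor linked to cell junctions, had 38.6 FPKM with LINC00472 and 51.6 FPKM in the control (-0.59). Under total-count or upper quartile scaling KIF3A, KIF16B, KIF21B and, in the remaining class, KIF24 were also called higher. These scalings called 22.5% and 25.1% of all genes higher.

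In the remaining class, KIF27, KIF12, KIF24 and KIF7 lay on the higher side. KIF27, the paralog of KIF7 linked to motile cilia in mice, had 6.07 FPKM (655 counts) in the LINC00472 library and 1.62 FPKM (429 counts) in the control library, 3.25-fold higher (log2 ratio 1.70, interval 1.52 to 1.88). Its pseudogene LOC389765 also was higher (220 counts with LINC00472 against 208 in the control, log2 ratio 1.17), and reads of these genes may be shared. KIF12 was 5.70-fold higher from 47 counts with LINC00472 against 17 in the control (2.51, interval 1.73 to 3.45). Its mean of 1.18 CPM was just above the minimum, and it was not called at a minimum of 5 CPM. KIF24, which guards the centriole end from growing a cilium, had 7.68 FPKM with LINC00472 and 3.60 FPKM in the control (0.91), and KIF7, the Hedgehog regulator of the cilium tip, had 13.1 FPKM with LINC00472 and 10.2 FPKM in the control (0.18).

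Those of the remaining class on the lower side were scarce messages, as was KIF12 on the higher side. KIF26A, an atypical kinesin without motor activity, was 2.79-fold lower from 18 counts with LINC00472 against 108 in the control (log2 ratio -1.48, interval -2.30 to -0.77). It was not called with FPKM plus 0.5 (-0.35), nor at a minimum of 5 CPM. KIF9, a ciliary and flagellar motor, had 63 counts with LINC00472 and 244 in the control (-0.86, interval -1.29 to -0.46), and it shares 870 exon bases with its antisense RNA KIF9-AS1, which had 89 counts with LINC00472 and 79 in the control. KIF9 was called lower with the control thinned to equal depth (-1.05). The strand setting of the counting is unknown, so reads of this pair cannot be told apart. The same holds for exon bases that KIFC2 shares with FOXH1 (791) and KIF7 with TICRR (589). Of the kinesins called higher, KIF13B shares opposite-strand exon bases with AC108449.3 (585) and AC108449.1 (279). KIF27 shares them with AL354733.2 (441) and AL354733.1 (348). Other members have such overlaps too, among them KIF22 with AC009133.4 (561). On the same strand, KIF2A shares 428 exon bases with IPO11 and KIF1B 293 with RN7SL731P, which no strand setting separates. KIF26B and KIF6 were below the minimum, with 8 and 14 counts with LINC00472, against 2 and 4 in the control. KIF19 and KIF25 had a count of 0 in both.

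As a family, kinesins held shares of the unscaled library totals that differed by less than counting error, with a different makeup. They took 0.359% of all counts with LINC00472 (0.356 to 0.361, exact 95% interval) and 0.358% in the control (0.356 to 0.360). This likeness depends on the scaling. On the TMM scale of the ratios the family level was lower with LINC00472, as that library had the larger factor (1.11 against 0.905). Mitotic members made up 45.4% of kinesin counts in the LINC00472 library (45.0 to 45.8) and 36.0% in the control library (35.8 to 36.2). Transport members made up 50.2% with LINC00472 and 61.6% in the control, and the remaining class 4.42% with LINC00472 and 2.42% in the control. KIF5B alone made up 14.01% with LINC00472 and 28.28% in the control. Without KIF5B, mitotic members made up 52.8% of the other kinesin counts with LINC00472 and 50.2% in the control. In deposited FPKM, which corrects for transcript length, the mitotic share was 53.8% with LINC00472 and 45.4% in the control.

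**Figure D3:**
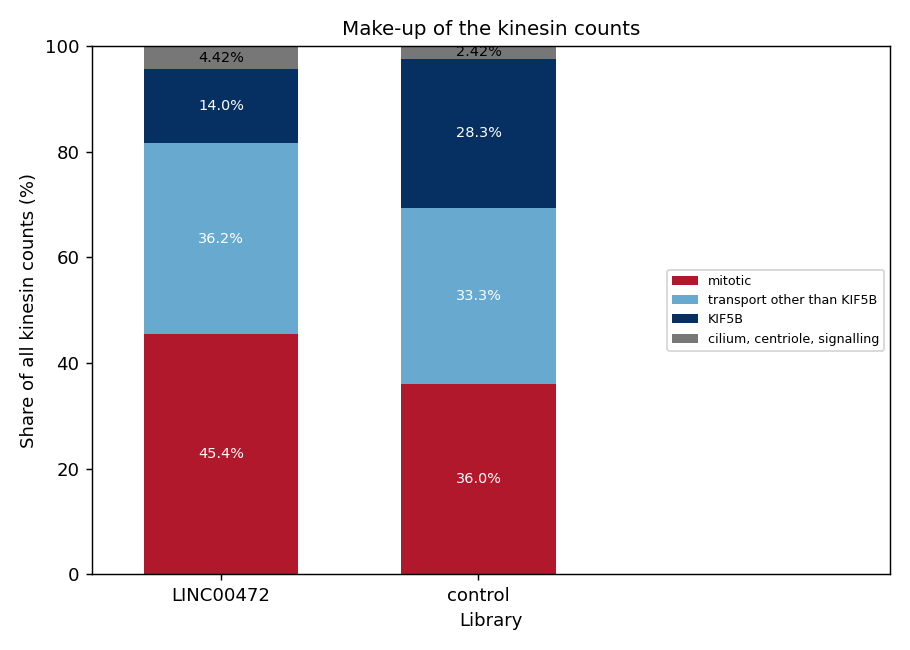
Share of all kinesin counts, in percent, taken by mitotic motors, transport motors other than KIF5B, KIF5B and the remaining class in the LINC00472 library (left) and the control library (right). KIF5B takes 14.01% on the left and 28.28% on the right, and the mitotic class 45.4% on the left and 36.0% on the right.

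By level, the 2 libraries ranked their kinesins differently below the top. In the LINC00472 library KIF5B was followed in FPKM by KIF23, KIF1B, KIF2C and KIFC3. In the control library it was followed by KIFC3, KIF23, KIF20A and KIF1B. KIF20A stood at rank 11 in the LINC00472 library and at rank 4 in the control library, and KIF20B at rank 6 with LINC00472 and 11 in the control. KIF1C stood at rank 26 with LINC00472 and 14 in the control.

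Ratios within pairs of related motors need no scaling, and 19 pairs were picked once values were known. The count of KIF20B was 2.52 times that of KIF20A with LINC00472 and 0.917 times in the control, a 2.75-fold difference (counting interval 2.59 to 2.92). KIF1B against KIF1C gave 8.53 times with LINC00472 and 2.31 times in the control, a 3.70-fold difference (3.45 to 3.96). KIF15 against KIF11 gave 1.36 times with LINC00472 and 0.706 times in the control (1.93-fold, 1.81 to 2.06). The order within each pair was set with it, so that the first motor gained in these 3 pairs is no separate result. KIF2C against KIF2A gave 2.36 times with LINC00472 and 1.91 times in the control (1.24-fold), and KIF18A against KIF18B gave 4.35 times with LINC00472 and 2.87 times in the control (1.51-fold). KIF23 against RACGAP1, its partner in centralspindlin, gave 2.16 times with LINC00472 and 1.39 times in the control (1.56-fold). Other motors went the opposite way against a midzone partner: KIF14 against CIT gave 2.06 times with LINC00472 and 3.32 times in the control, and KIF4A against PRC1 gave 0.208 times with LINC00472 and 0.234 times in the control.

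Transcript length went with the ratios of the mitotic class more than with those of the transport class. Over 13 mitotic genes, Spearman's correlation of the log2 ratio with transcript length was 0.52, and over 14 transport genes it was -0.28. Over all 33 measured kinesins it was 0.046, and over 12306 protein-coding genes it was 0.36. These are descriptions across genes, which share 1 pair of libraries and are not replicates. The median of protein-coding genes ran from -1.35 in the tenth of shortest transcripts (918 nt) to 0.25 in the tenth of longest ones (7950 nt). KIF1C (7919 nt) and KIF5B (5877 nt) lay below the medians of their length groups, and KIF12 (2001 nt) above.

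**Figure D4:**
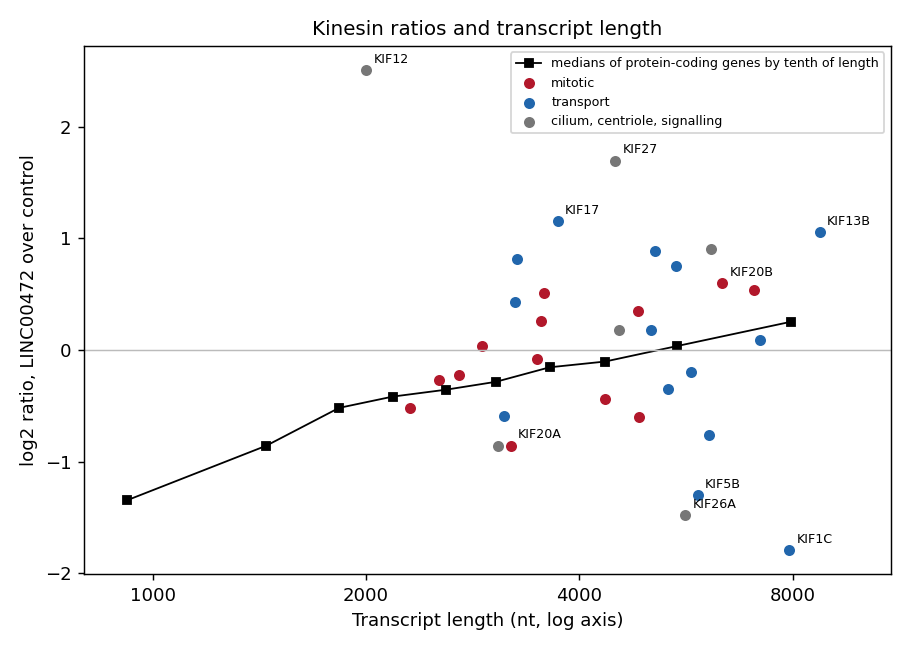
Log2 ratio, LINC00472 over control, against transcript length in nt (log axis) for the 33 kinesins at the minimum, with the medians of protein-coding genes in 10 groups of length (squares). The medians run from -1.35 to 0.25, and KIF1C and KIF5B lie below the medians while KIF12, KIF27 and KIF17 lie above them.

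The partners of kinesins were read from lists and are given beside the kinesins by their counts. Of 19 measured light chains, adaptors and accessory proteins, 6 were lower and 1 was higher (median -0.09), together 36.8%, against 40.2% of all genes. Upper quartile factors left 2 lower, total counts 3, FPKM plus 0.5 also 3 and length adjustment 4. In that order these settings left 14.2%, 16.3%, 17.3% and 16.5% of all genes lower. FEZ1, an adaptor of KIF5B cargo, was 2.65-fold lower and the kinesin-binding protein KIF1BP 2.51-fold lower, while BORCS5, a subunit of the complex that recruits kinesin to lysosomes, was 2.17-fold higher. FEZ1 was no longer called after length adjustment (-0.74). Of the light chains of KIF5B, KLC2 had 9.02 FPKM with LINC00472 and 19.0 FPKM in the control (log2 ratio -1.25) and KLC1 had 50.4 FPKM with LINC00472 and 62.6 FPKM in the control (-0.49). KLC2 counts were 0.0596 of those of KIF5B with LINC00472 and 0.0578 in the control, and KLC1 counts 0.285 with LINC00472 and 0.162 in the control.

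Of 20 spindle and midzone partners of the mitotic motors, 3 were higher and 3 were lower (median -0.37), together 30.0% against 40.2% of all genes. ASPM, a spindle pole protein, was 3.04-fold, the cytokinesis kinase gene CIT 2.34-fold and the kinetochore kinesin CENPE, which the choice by symbol leaves out, 2.11-fold higher. The microtubule end protein gene MAPRE1 was 3.38-fold, BIRC5 2.90-fold and the mitotic kinase PLK1 2.05-fold lower. After length adjustment 1 was higher and 2 were lower, and CIT (0.78), CENPE (0.63) and PLK1 (-0.81) were no longer called. That adjustment left 18.2% of all genes higher and 16.5% lower. Of 10 regulators of late cell cycle transcription, 3 were lower and 1 was higher (median -0.75), 40.0% in all. MYBL2, which encodes B-MYB, was 3.60-fold, TFDP1 2.99-fold and E2F1 2.61-fold lower, and RBL2, a pocket protein of DREAM, was higher (log2 ratio 1.07), a call that ended with length adjustment.

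Dynein, the motor that opposes most transport kinesins, was lower in many of its subunits. Of 9 measured dynein subunits 6 were lower and 0 were higher (median -1.13), where 23.8% of all genes were lower, among them the light chains DYNLL1 (5.48-fold) and DYNLRB1 (3.44-fold) and the light intermediate chain DYNC1LI1 (2.86-fold). After length adjustment DYNLRB1 (-0.62) was no longer called. The heavy chain DYNC1H1 had 174 FPKM with LINC00472 and 132 FPKM in the control (log2 ratio 0.21). Of 12 subunits of dynactin, its activator, 9 were lower and 0 were higher (median -1.23), with DCTN3 3.73-fold, CAPZA2 3.40-fold and CAPZB 3.35-fold lower. DCTN3 was no longer called after length adjustment (-0.74). With upper quartile factors 3 dynein and 5 dynactin genes were lower, and with length adjustment also 3 and 5. Among all genes these settings left 14.2% and 16.5% lower.

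Of 17 intraflagellar transport genes, the cargo system of KIF3A and KIF17, 2 were higher and 3 were lower (median 0.44), together 29.4% against 40.2% of all genes. WDR19 was 2.55-fold and IFT172 2.06-fold higher, and IFT22 was 5.28-fold, IFT46 2.53-fold and IFT52 2.40-fold lower. Upper quartile factors gave 7 higher and 1 lower, total counts 4 and 2, and length adjustment 4 and 2. In that order these settings called 25.1%, 22.5% and 18.2% of all genes higher and 14.2%, 16.3% and 16.5% lower. With length adjustment IFT172 (0.81) and IFT52 (-0.94) were no longer called. IFT20, IFT27 and IFT43, named for this reason, were then called higher beside WDR19. Of 13 measured myosins, the motors of actin filaments, 2 were lower and 0 were higher (median -0.26), namely MYO5B (4.47-fold) and MYO1C (2.81-fold), and total counts, upper quartile factors or a thinned control each gave 1 higher.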

How the data were processed

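RNA of 2 NCI-H838 cultures was sequenced, and the sample titles gave the group of each library. The authors deposited unnormalized read counts and FPKM values per gene, per the file headers. The build was hg19, per the submitters' processing notes, which also list HISAT2 2.1.0 and StringTie 1.3.4b with no role. Read assignment and strand are not given in the sources used.

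The counts of the whole table were scaled with TMM factors (edgeR 4.0.16) of 1.11 for LINC00472 and 0.905 for the control. Before the log2 ratio of LINC00472 over control, 0.5 was added in proportion to library size. The interval is the exact conditional 95% interval of the ratio of 2 counts, and holds no more than counting error, as reads need not be independent molecules. A call required 1 CPM on average, a 2-fold ratio and an interval excluding equality. Intervals of shares are exact (Clopper-Pearson), and those of pair ratios are exact conditional ones for smaller counts and normal approximations on the log scale for larger ones.

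Transcript lengths came from GENCODE 29 (found for all 42 kinesins), and protein-coding status and start windows from RefSeq (GRCh38.p14). Coordinates of that build belong to the printed windows only. Length-adjusted ratios subtract the median of protein-coding genes in the same of 10 groups of transcript length and add back the median of all genes. Of 42 kinesins, 34 had a start window.

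The members, classes, partner lists and rules were chosen with earlier results of these data known. Values in both libraries are given for each kinesin at the minimum, and of each partner list up to 3 called genes in each direction with the largest ratios at 5 CPM or more. One gene that this rule names is not reported here. KLC1, KLC2, DYNC1H1, KIFAP3, RACGAP1 and the pairs were picked once values were seen, as were the stretches with TTTGAA matches and the window of KIF5B. Alternatives were upper quartile factors, total counts, size factors of DESeq2 1.42.0, FPKM plus 0.5, a prior count of 5, minimums of 0.1 and 5 CPM or none, a limit of 1.5-fold, the single-library tables, length adjustment, the control thinned to the total of the LINC00472 library, and other class members. For the partner lists the alternatives were chosen after seeing the data. The calling was tested on simulated data. Statistics used scipy 1.17.1.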

Additional observations from a re-analysis of the deposited data

How the results depend on the processing

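No called kinesin changed direction under any alternative. Of 358 alternative values of single kinesins, 253 stayed inside the counting interval and 105 moved outside it. Values under other minimums and from the single-library tables, whose counts are identical, equal the main ones by construction. The 253 therefore do not measure stability. KIF1C, KIF12 and KIF27 were called under every setting that kept them above the minimum. The number of kinesins called higher was 4. It became 8 with total counts, 8 with upper quartile factors, 7 at a minimum of 0.1 CPM and 7 with no minimum. At 5 CPM it was 2, and at 1.5-fold 9. With FPKM plus 0.5, length adjustment or a thinned control it was 3. Among all genes 16.3% were higher, and 22.5% with total counts, 25.1% with upper quartile factors and 20.5% at 0.1 CPM. That share was 18.4% with no minimum and 11.6% at 5 CPM. It was 15.5% with FPKM plus 0.5, 18.2% with length adjustment and 16.3% with a thinned control. The number called lower was 3, and became 2 with upper quartile factors, at 5 CPM or with FPKM plus 0.5. It became 4 at 0.1 CPM, with no minimum or with a thinned control. At 1.5-fold it became 8, where 25.4% of all genes were higher and 36.5% lower. Among all genes 23.8% were lower, and 14.2% with upper quartile factors, 26.2% at 5 CPM and 17.3% with FPKM plus 0.5. That share was 22.0% at 0.1 CPM, 19.3% with no minimum and 24.0% with a thinned control. The mitotic median of -0.08 became 0.20 with total counts, 0.30 with upper quartile factors and 0.091 with FPKM plus 0.5. The transport median of 0.14 became 0.43, 0.53 and 0.24 with these settings, -0.051 at 5 CPM and -0.19 with length adjustment. The scalings moved the median of all genes from -0.19 to 0.11 (total counts) and 0.21 (upper quartile). The difference of the class medians, -0.22, became -0.032 at 5 CPM and 0.14 with length adjustment. The log2 ratio of LINC00472, 2.23, became 2.52 with total counts, 2.62 with upper quartile factors and 2.30 with FPKM plus 0.5. The causes were not tested. No paired analysis was possible because each group held 1 library, and no library could be left out for the same reason. Depth limits the 9 kinesins below the minimum, and KIF12 and KIF26A have wide intervals.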

Other observations

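KIF6, a kinesin of motile cilia below the expression minimum, stood furthest apart among kinesins in how its FPKM followed its counts. It had 14 counts and 0.310 FPKM in the LINC00472 library and 4 counts and 0.00752 FPKM in the control library. The log2 ratio of its FPKM exceeded that of its unscaled counts by 3.56, whereas for the 33 measured kinesins the excess lay between 1.21 and 1.41 with a median of 1.28. KIF26B (1.94) and KIF5A (1.43), which were also below the minimum, lay above that range too. The cause was not tested.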
